A study of Homo sapiens with 8 samples.

Results

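Metallothioneins bind zinc and copper inside the cell, and SLC30A1 (ZnT1) moves zinc out of it. The genes described are the metallothioneins MT2A, MT1X, MT1E and MT1F, the zinc-sensing transcription factor MTF1 and the zinc exporter SLC30A1, taken as a list of 6 gene symbols. Of these, 5 have a row in the expression table of 14526 genes, and MT1E has none. RNA was sequenced from 4 control cultures and from 4 cultures kept with sodium benzoate (SB), a food preservative and drug, at 10 mM for 24 h. Both groups were labelled HepG2, an established line from a human liver carcinoma, and were grown in the same medium with serum.

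Metallothioneins are very small proteins rich in cysteine, whose thiols hold zinc and copper. When free zinc rises, MTF1 binds short metal response elements in the promoters of metallothionein genes and of SLC30A1 and switches them on, so that the metal is bound or exported. Metallothionein genes, MT2A among them, also respond to glucocorticoids and to oxidative stress, and liver is a tissue where they are strongly inducible.

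The labelled cell type was checked against 19 hepatocyte markers. For 17 of them the table has no row, among them ALB, AFP, APOA1, SERPINA1 and HNF4A. The other 2 were at a mean of 6.57 RPKM (CPS1) and 0.192 RPKM (TF) in the controls, where RPKM is the number of reads divided by gene length and by library size. Both were higher after SB, with a summed level of 6.49 to 7.14 RPKM in the controls and 11.3 to 11.6 RPKM after SB. TF lay below the filter on reads described below in every control, at 0.21 RPKM or less over 2791 counted bases. It thus has a row through its SB-treated libraries, which favours a higher mean after SB. Most of the defining markers are thus absent from the table, and the cells are called here by their label. The part of these marker differences in the results was not tested. Fibroblast markers had a row for 2 of 6 genes, with a summed level of 3.97 to 5.71 RPKM in the controls and 4.66 to 4.75 RPKM after SB, and leukocyte markers for 2 of 6, with 2.01 to 2.37 and 1.99 to 2.29 RPKM. In bulk RNA, fewer cells that express a gene and less RNA per cell cannot be told apart. Recovered reads per library ranged from 36990091 to 44878446. Control replicate 1 stood apart, since its reads differed from those of the other controls by 33.4 to 38.4 times the counting variance (chi-square over its degrees of freedom), and those of other pairs within a group by 1.52 to 3.8 times. For the genes described, each result that turned on a library is given with and without it. For the lists of other genes only the counts without control replicate 1 are given, and for other libraries at most a range.

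The metallothionein genes lie together on chromosome 16 of hg38, within 75613 bases from the start of MT2A to the end of MT1X, and all 4 are on the plus strand. MT2A spans 56608584 to 56609497, MT1E 56625475 to 56627112, MT1F 56657731 to 56660698 and MT1X 56682470 to 56684196 in GENCODE release 44. MTF1 lies on chromosome 1 from 37809574 to 37859592 and SLC30A1 on chromosome 1 from 211571568 to 211579161, both on the minus strand. The canonical transcripts of MT2A, MT1X and MT1F have 3 exons, that of MTF1 has 11 and that of SLC30A1 has 2.

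Because MTF1 acts through the metal response element, the promoters are shown with every match to its core in capitals, searched as TGCACNC and TGCGCNC on both strands, where N is any base. The 2 spellings cannot match at the same place on the same strand, and matches on opposite strands may overlap. The sequences are the 250 bases before the annotated start, 5′ to 3′ on the gene's strand, from a set of RefSeq promoters (GRCh38.p14). The set used here gave a sequence for 4 of the 6 genes and none for MT1E or MT1F, whose promoters were not examined. The MT2A stretch is chr16:56608334-56608583 (plus strand), the MT1X stretch is chr16:56682220-56682469 (plus strand) and the SLC30A1 stretch is chr1:211579162-211579411 (minus strand).
MT2A: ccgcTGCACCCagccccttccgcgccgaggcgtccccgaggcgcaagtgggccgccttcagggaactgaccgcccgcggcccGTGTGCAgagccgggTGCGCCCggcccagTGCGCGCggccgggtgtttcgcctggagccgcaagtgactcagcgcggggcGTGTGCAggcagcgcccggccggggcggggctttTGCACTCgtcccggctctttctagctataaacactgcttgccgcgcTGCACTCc
MT1X: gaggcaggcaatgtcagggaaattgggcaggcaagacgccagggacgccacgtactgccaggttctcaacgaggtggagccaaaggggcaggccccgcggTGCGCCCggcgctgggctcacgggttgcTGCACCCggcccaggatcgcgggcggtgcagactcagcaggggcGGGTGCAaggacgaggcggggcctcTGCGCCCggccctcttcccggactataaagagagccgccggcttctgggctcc
SLC30A1: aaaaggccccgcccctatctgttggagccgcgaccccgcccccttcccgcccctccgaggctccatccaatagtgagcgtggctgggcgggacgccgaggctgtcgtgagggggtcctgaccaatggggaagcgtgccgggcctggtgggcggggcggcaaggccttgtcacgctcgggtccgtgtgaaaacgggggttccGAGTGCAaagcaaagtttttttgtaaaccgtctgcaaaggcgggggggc

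The MT2A stretch held 7 matches, MT1X held 4 and SLC30A1 held 1. In MT2A they began 246, 168, 153, 139, 88, 54 and 8 bases upstream of the start, and in MT1X 150, 122, 78 and 53 bases upstream. The single upstream match of SLC30A1 began 49 bases before the start. With the 50 bases after the start included, MT2A held 8 matches, MT1X 4, SLC30A1 2 and MTF1 0. Among 35116 RefSeq promoters of the same length, 29.6% held at least 1 match and 0.601% held at least 4. Over the 250 upstream bases alone, 24.8% held at least 1, 0.37% at least 4 and 0.0513% at least 6. A match is a run of letters, and binding was not measured here.

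**Figure D1:**
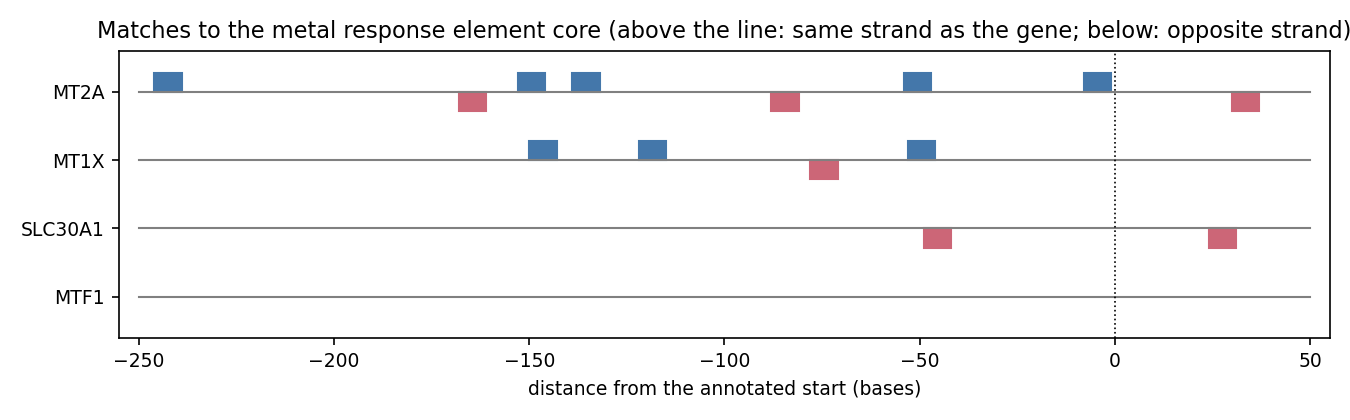
Matches to the metal response element core in the promoters of MT2A, MT1X, SLC30A1 and MTF1. The horizontal axis is the distance from the annotated start in bases, boxes above a line are on the gene's own strand and boxes below it on the other strand; MT2A holds 8 boxes, MT1X 4, SLC30A1 2 and MTF1 none.

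In the controls the levels, scaled per length, were in the order MT2A, SLC30A1, MT1X, MTF1 and MT1F. Control values of MT2A overlapped with those of SLC30A1, and those of SLC30A1 with those of MT1X, so neighbours in this upper part did not separate beyond their spread. MTF1 lay below MT1X and above MT1F without overlap, although the highest MT1F control (2.79 RPKM) came close to the lowest MTF1 control (2.82 RPKM). After SB, MT1X lay below SLC30A1 in every library, and MT2A still overlapped with SLC30A1. MT2A ranked above 58.2% of the genes of the table by control level, SLC30A1 above 51.7%, MT1X above 49.0%, MTF1 above 29.0% and MT1F above 24.6%. The level of SLC30A1 is per 2018 counted bases, whereas its canonical GENCODE transcript has 5893, so its place in this order depends on the annotation used for counting.

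After SB, MTF1 was higher by 33.7%, SLC30A1 was at 0.998 times its control level, and MT2A, MT1X and MT1F had lower means that did not pass the test over all libraries. The comparison asks how 24 h of SB alters the RNA of the genes that sense, bind and export zinc. Each gene was compared between SB-treated and control libraries by limma on a log2(RPKM + 1) scale, and p-values were adjusted over the 14526 genes by the Benjamini-Hochberg method. Of all genes tested, 65.6% passed an adjusted p below 0.05, 33.0% higher and 32.6% lower, and for 61.5% the groups did not overlap. Of the 5 genes with a row, 1 passed and its groups did not overlap: MTF1 was higher. None of the other 4 passed. The split of all genes rests on the scaling, with 4787 higher and 4740 lower here, 6253 (43.0%) and 3357 (23.1%) without the authors' TMM factors, and 7439 (51.2%) and 2432 (16.7%) with equal sums of RPKM. MTF1 stayed higher and MT2A, MT1X and MT1F stayed below 0 in both. The median log2 fold change was -0.27 over the 5 genes and 0.00 over all genes. Without control replicate 1, 1 of the 5 was higher and 3 were lower, where 37.6% of all genes were higher and 37.9% lower. Both the median and the 3 lower include MT1F. That gene has a row through its controls, as described below, which favours a lower mean after SB.

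MTF1, the zinc-sensing activator, was at 2.89, 2.995, 2.82 and 3.10 RPKM in control replicates 1 to 4 and at 4.03, 4.05, 3.88 and 3.82 RPKM in SB-treated replicates 1 to 4. Every SB-treated library lay above every control library. The mean rose from 2.95 ± 0.121 to 3.94 ± 0.114 RPKM (SD, n = 4), which is 1.34 times the control level, and the mean reads from 933 to 1311. The log2 fold change was 0.32 with a standard error of 0.036 (adjusted p = 4e-05 by limma). At this level the log2(RPKM + 1) scale understates the change, and with a pseudocount of 0.1 in place of 1 it was 0.41 (limma adjusted p = 5.63e-05). The exact permutation test of 4 against 4, two-sided, gave p = 0.0286, the smallest that this design allows. The change was rank 2002 of 14526 on the log2(RPKM + 1) scale, so a rise of this size was common in the table. The spread between control replicates was 4.11% of the mean, close to the 3.27% that counting alone would give.

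The profiles most like that of MTF1 over the 8 libraries were those of ATG2B and MAP3K4, among 12544 other genes with a mean of at least 1 RPKM. ATG2B, which transfers lipids to growing autophagosomes, differed from it by 0.0100 (root mean square of the centred log2(RPKM + 1) values) and went from 6.28 to 8.09 RPKM. MAP3K4, a kinase of the stress-activated MAP kinase pathways, differed by 0.0225 and went from 11.5 to 14.6 RPKM. This likeness is a description over samples of 2 groups.

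SLC30A1, the plasma membrane zinc exporter, was at 9.29, 8.89, 8.38 and 8.78 RPKM in control replicates 1 to 4 and at 8.51, 8.90, 8.65 and 9.20 RPKM in SB-treated replicates 1 to 4. The groups overlapped over almost their whole range, and 2 of 4 SB-treated libraries lay below the control mean. The mean was 8.83 ± 0.376 RPKM in control and 8.82 ± 0.304 RPKM after SB (SD, n = 4), from 708 and 744 mean reads. The log2 fold change was -0.0023 with a standard error of 0.040 (adjusted p = 0.964 by limma), with a 95% interval from -0.09 to 0.09. Its value follows the scaling of the libraries. It was 0.0922 (adjusted p = 0.0602) without the authors' TMM factors, where the median gene moved to 0.113, and 0.17 (adjusted p = 0.00516) with equal sums of RPKM, where the median gene moved to 0.195. The values of the median gene are log2 ratios without the added 1, so they are not on the same scale as those of SLC30A1.

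The ratio of MTF1 to SLC30A1 within a library does not depend on library size. It was between 0.311 and 0.353 in the controls and between 0.415 and 0.473 after SB. These groups did not overlap, and no scaling of whole libraries alters that. The same ratio for MT2A lay between 0.779 and 1.55 in the controls and between 0.927 and 1.09 after SB, and these groups overlapped.

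The 3 measured metallothioneins had means that were 19.8% to 26.0% lower after SB, and none passed the threshold. MT2A, the major human metallothionein in many tissues, was at 7.23, 11.9, 13.0 and 13.3 RPKM in control replicates 1 to 4 and at 7.89, 9.30, 9.48 and 9.44 RPKM in SB-treated replicates 1 to 4. Control replicate 1 was lower than every SB-treated library, while the other 3 controls were higher than all of them. The mean was 11.4 ± 2.83 RPKM in control and 9.03 ± 0.763 RPKM after SB (SD, n = 4), from 187 and 158 mean reads. The log2 fold change was -0.27 with a standard error of 0.158 (adjusted p = 0.152 by limma), with a 95% interval from -0.63 to 0.08, and the exact permutation test gave a two-sided p = 0.229. It passed the threshold without control replicate 1 (-0.46, adjusted p = 0.000111) and in none of the other 7 fits that omit a library. With TMM-free scaling it was -0.18, and with equal sums of RPKM -0.10, both relative to a median gene that had moved up.

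Control replicate 1 was compared with the other controls among genes of similar base composition. For MT2A, whose canonical transcript has 55.6% GC, control replicate 1 lay at -0.817 on the log2 scale relative to the mean of the other controls. Among 1592 genes within 2 points of that GC content the median was -0.175, with the lower decile at -0.394 and the upper decile at 0.0697. For MT1X, at 49.3% GC, it lay at -0.403, where the lower decile was -0.245, and for MT1F, at 52.9% GC, at -0.272, where the lower decile was -0.333. For SLC30A1, at 40.7% GC, control replicate 1 lay at 0.0986, where 2295 genes of similar GC content had a median of 0.181. The part of base composition in the MT2A result was not tested.

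MT1X was at 6.40, 8.17, 9.63 and 7.69 RPKM in control replicates 1 to 4 and at 6.57, 7.72, 5.38 and 5.91 RPKM in SB-treated replicates 1 to 4. The groups overlapped, and 4 of 4 SB-treated libraries lay below the control mean. The mean was 7.97 ± 1.33 RPKM in control and 6.39 ± 1.01 RPKM after SB (SD, n = 4), from 126 and 107 mean reads. The log2 fold change was -0.28 with a standard error of 0.118 (adjusted p = 0.0627 by limma), with an unadjusted p of 0.0424 from limma, a 95% interval from -0.54 to -0.01 and a two-sided exact permutation p = 0.143. Without TMM factors it was -0.19, and with equal sums of RPKM -0.11 (adjusted p = 0.402). It passed the threshold without control replicate 1 (-0.37, adjusted p = 0.00991) and without SB-treated replicate 2 (-0.36, adjusted p = 0.0236).

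MT1F was at 1.90, 2.79, 1.74 and 2.48 RPKM in control replicates 1 to 4 and at 1.56, 2.13, 1.47 and 1.42 RPKM in SB-treated replicates 1 to 4. Here too the groups overlapped, and 4 of 4 SB-treated libraries lay below the control mean. The mean was 2.23 ± 0.492 RPKM in control and 1.65 ± 0.330 RPKM after SB (SD, n = 4), from only 42.8 and 33.0 mean reads. MT1F has a row through its controls, as described below, which favours a lower mean after SB. The log2 fold change was -0.28 with a standard error of 0.114 (adjusted p = 0.0525 by limma), with a 95% interval from -0.54 to -0.02 and a two-sided exact permutation p = 0.114. On the log2(RPKM + 1) scale the change of a gene this low is understated, and with a pseudocount of 0.1 it was -0.41 (adjusted p = 0.056). Without TMM factors it was -0.21, and with equal sums of RPKM -0.16 (adjusted p = 0.236). The adjusted p fell to 0.0295 without control replicate 1, to 0.024 without control replicate 3 and to 0.017 without SB-treated replicate 2.

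**Figure D2:**
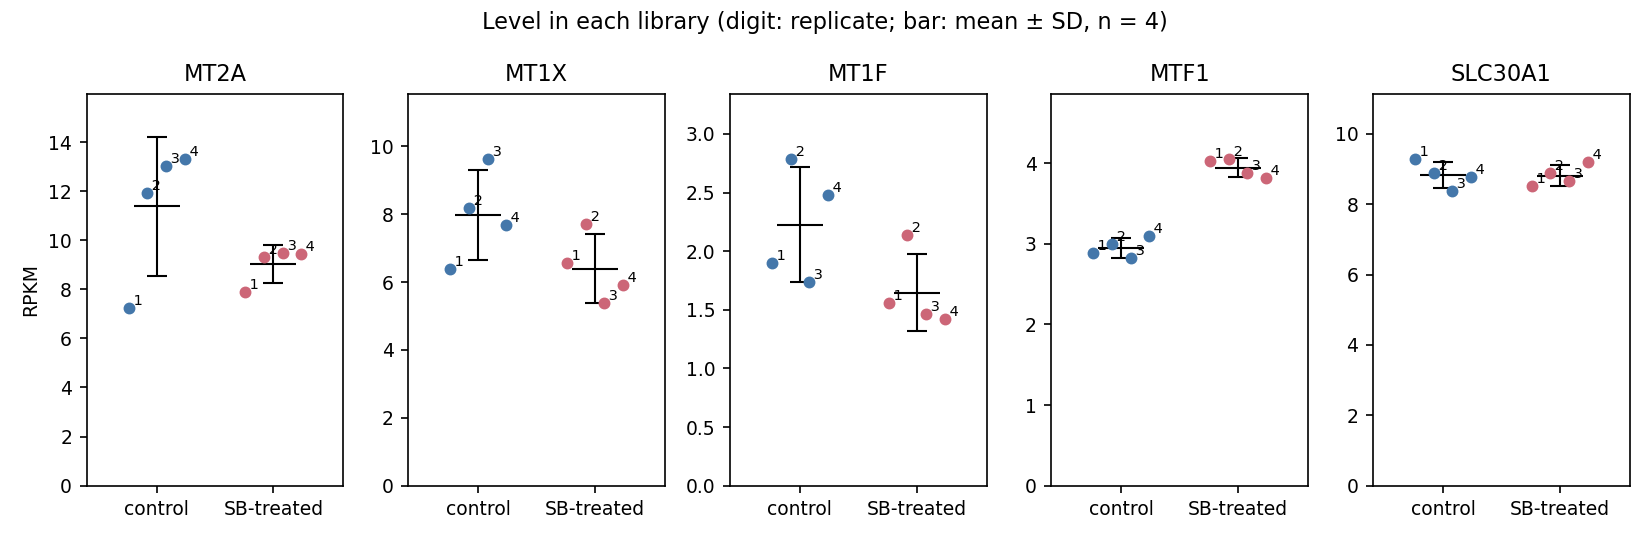
RPKM of each gene in each library, with the replicate number beside each point and the mean ± SD (n = 4) as a bar. MTF1 separates the groups, SLC30A1 does not, and MT2A shows control replicate 1 at 7.23 RPKM below the other controls, which start at 11.9 RPKM.

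The spread between replicates of the short metallothionein genes was set beside the counting error of their reads. For MT1F, counting alone would give a spread of 15.3% of the control mean, and 22.1% was measured. For MT1X the values were 8.89% and 16.7%, and for MT2A 7.31% and 24.8%. The MT2A spread after SB was 8.46%, against 7.94% from counting. Genes counted over up to 500 bases had a median standard error of 0.110 on the log2 scale, against 0.050 over all genes, and 62 of 108 of them, 57.4%, passed the threshold.

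The summed level of MT2A, MT1X and MT1F was 15.5, 22.9, 24.4 and 23.5 RPKM in control replicates 1 to 4 and 16.0, 19.2, 16.3 and 16.8 RPKM in SB-treated replicates 1 to 4. Control replicate 1 was the lowest of all 8 libraries, and the other controls were higher than every SB-treated library. The share of each gene in the sum differed between the groups by less than its SD. MT2A made up 52.2 ± 4.21% of the sum in control and 53.0 ± 4.83% after SB (SD, n = 4), MT1X 37.3 ± 3.80% and 37.4 ± 3.91%, and MT1F 10.5 ± 2.39% and 9.60 ± 1.16%.

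**Figure D3:**
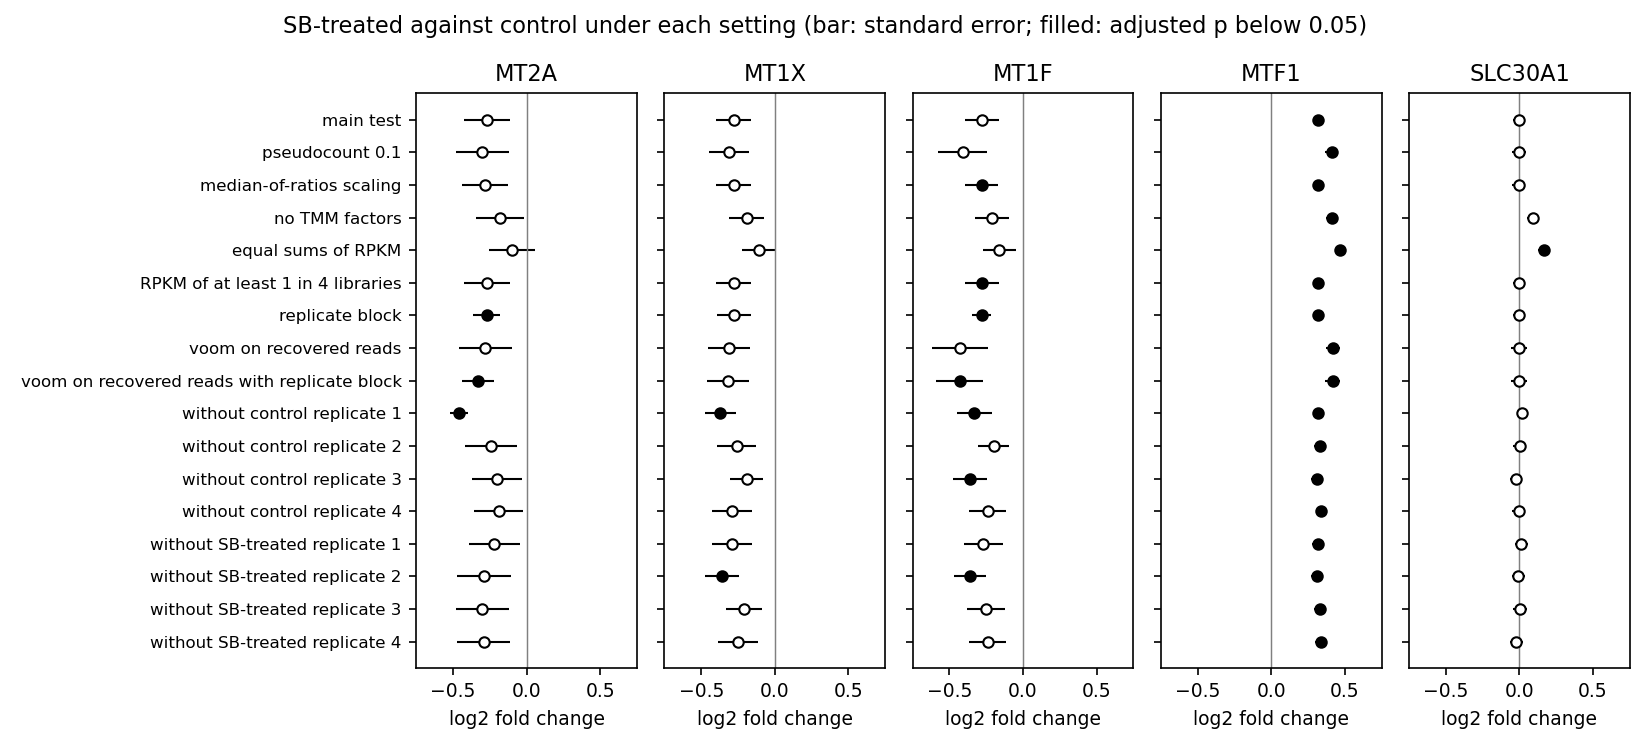
Log2 fold change (SB-treated against control) of each gene under each setting, with its standard error and a filled point for an adjusted p below 0.05. MTF1 is filled in every row, from 0.31 to 0.47, while MT2A, MT1X and MT1F lie left of 0 throughout and are filled in some rows.

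Reads of 50 bases cannot always be assigned within this family. Of the 352 windows of 50 bases in the canonical MT2A transcript, 39 (11.1%) occur unchanged in transcripts of a gene elsewhere, led by the pseudogene MT2P1 with 20 and by MT1G with 16. For MT1X it was 64 of 355 (18.0%), with 47 shared with MT1G, and for MT1F 23 of 376 (6.12%). For MT1E, the gene without a row, it was 72 of 697 (10.3%). A GENCODE long noncoding gene (ENSG00000259827) also starts at the same base as MT1X on the same strand. The values of MT2A, MT1X and MT1F are uncertain to the extent that such reads were assigned to another gene or left out, which was not tested. SLC30A1 has no such window among 5844, and MTF1 has 51 of 7888 (0.647%).

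None of 14 other metallothionein genes and pseudogenes looked for, among them MT1A, MT1G, MT1M and the brain form MT3, has a row, and they are not analysed here. A row required more than 1 CPM (reads scaled to library size) in at least 2 libraries. MT1F itself was near the limit, with 0.840 to 1.35 CPM in the controls and 0.688 to 1.03 CPM after SB. It exceeded 1 CPM in control replicates 2 and 4 and in SB-treated replicate 2, so the SB-treated libraries alone would not have given it a row. For MT1F such a filter favours a lower mean after SB, and its part in the MT1F value was not tested.

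The rest of the SLC30 family, most of which move zinc out of the cytosol, had a row for 7 of 9 genes. Of these, 1 was higher and 0 were lower, against 33.0% and 32.6% over the table. SLC30A4, which loads zinc into vesicles, rose from 2.55 ± 0.177 to 3.29 ± 0.146 RPKM (SD, n = 4), and its groups did not overlap. Its log2 fold change was 0.28 (limma adjusted p = 0.000446). SLC30A5, SLC30A6 and SLC30A7, which supply the secretory pathway, had log2 fold changes of 0.0019, 0.03 and 0.02, each with an interval inside -0.14 to 0.15. The median over the 7 was 0.02. Without control replicate 1, 3 were higher and 1 was lower, against 37.6% and 37.9% of all genes. Without TMM factors 3 were higher and 0 lower, against 43.0% and 23.1%, and with equal sums of RPKM 5 and 0, against 51.2% and 16.7%.

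Zinc importers of the SLC39 (ZIP) family had a row for 11 of 14 genes, of which 1 was higher and 3 were lower. The 3 of 11 lower are near the 32.6% of the table, where 33.0% were higher. SLC39A4, the importer needed for zinc uptake in the gut, fell from 4.72 ± 0.612 to 3.26 ± 0.406 RPKM (SD, n = 4), which is -0.43 as log2 fold change (limma adjusted p = 0.00218). SLC39A1 at the cell surface fell from 47.9 ± 2.59 to 39.5 ± 0.636 RPKM, which is -0.27 as log2 fold change (adjusted p = 0.000403). With equal sums of RPKM it was -0.09 (adjusted p = 0.098). SLC39A7, which releases zinc from the endoplasmic reticulum, fell by 0.27 on the log2 scale (adjusted p = 0.000245). Its counted length of 14724 bases is 3.68 times its GENCODE exons, so its level is not comparable with the others. SLC39A13 in the Golgi rose from 9.05 ± 1.18 to 12.0 ± 0.646 RPKM, which is 0.37 as log2 fold change (adjusted p = 0.00264). The counts were 2 higher and 5 lower without control replicate 1, against 37.6% and 37.9% of all genes. They were 4 and 3 without TMM factors, against 43.0% and 23.1%, and 5 and 2 with equal sums of RPKM, against 51.2% and 16.7%. SLC39A10 and SLC39A14 had log2 fold changes of -0.08 and -0.06 and did not pass. The family median was -0.08 and turned to 0.02 without TMM factors and to 0.10 with equal sums of RPKM.

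Copper is the other main metal that metallothioneins bind. Of 13 copper handling genes 12 have a row, and 2 were higher and 8 lower, against 33.0% higher and 32.6% lower over the table. The list was chosen with earlier results of these data known, so its count is a description and no test of the list. SLC31A1 (CTR1), the main copper importer, fell from 29.4 ± 0.811 to 21.7 ± 0.642 RPKM (SD, n = 4), which is -0.42 as log2 fold change (limma adjusted p = 8.34e-06). SOD1, the copper- and zinc-binding superoxide dismutase, fell from 357 ± 16.8 to 259 ± 4.27 RPKM, which is -0.46 as log2 fold change (adjusted p = 8.7e-06). The groups did not overlap for either gene. SCO1 and COX11, which insert copper into cytochrome oxidase, fell by 0.47 and 0.26 on the log2 scale. ATOX1, the copper chaperone of the secretory pathway, fell by 0.35 with groups that overlapped (adjusted p = 0.0127).

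The copper genes that rose were the exporter ATP7B, with a log2 fold change of 0.23 (adjusted p = 0.0147), and SLC31A2, with 0.17 (adjusted p = 0.00999). ATP7A, the other copper-exporting ATPase, was at 4.91 ± 0.180 RPKM in control and 4.96 ± 0.0858 RPKM after SB (SD, n = 4). The median over the 12 genes was -0.22 and stayed negative with -0.13 without TMM factors and -0.05 with equal sums of RPKM. The number lower was 5 and 4 in those scalings, against 23.1% and 16.7% of all genes. ATOX1, COX17 and COX19 no longer passed in either, and COX11 no longer passed in the latter. COX17, at -0.18 in the main test, turned to 0.01 (adjusted p = 0.945) with equal sums of RPKM. Without control replicate 1 the counts were 2 higher and 8 lower, against 37.6% and 37.9% of all genes.

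**Figure D4:**
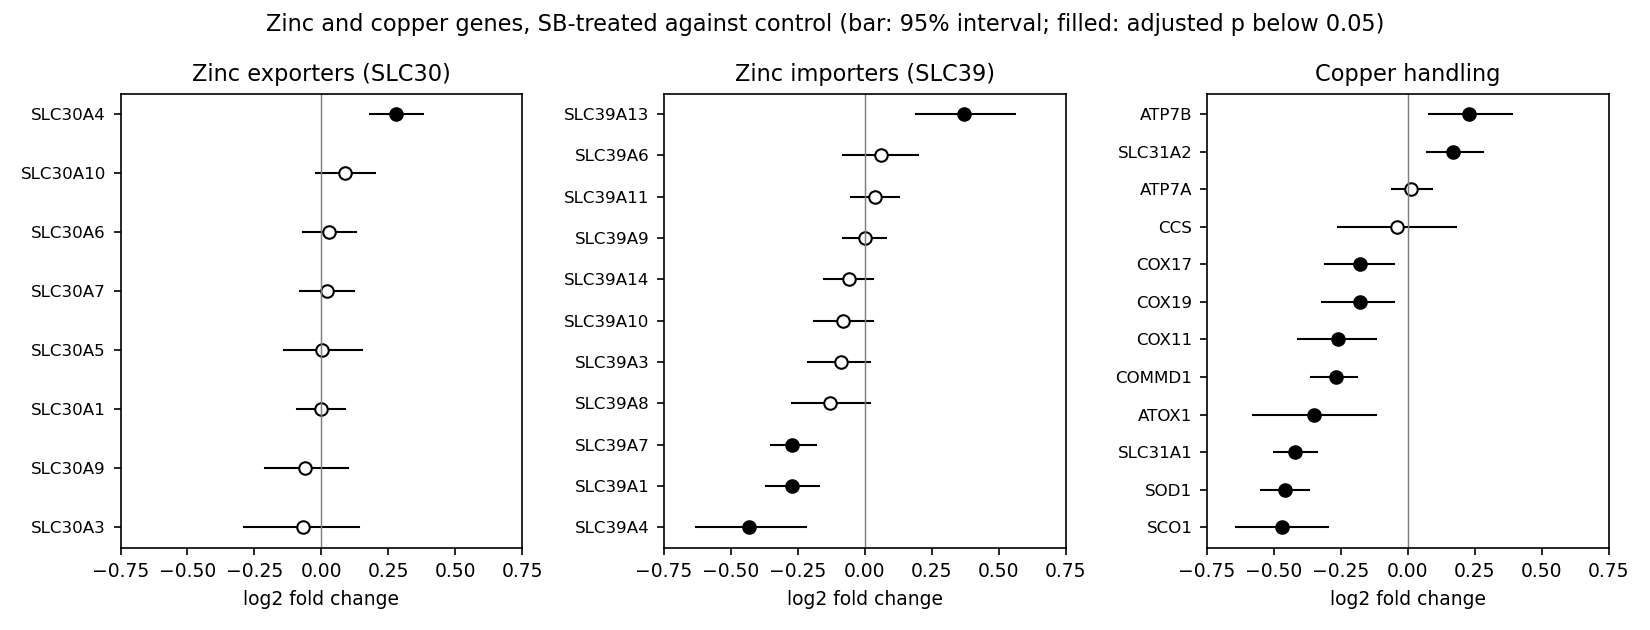
Log2 fold change with its 95% interval for zinc exporters (SLC30A1 included), zinc importers and copper handling genes, on the log2(RPKM + 1) scale, with filled points for an adjusted p below 0.05. Filled points in the copper panel lie mostly left of 0, down to -0.47 for SCO1, while SLC30A1 sits at -0.0023.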

How the data were processed

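RNA was sequenced from 4 control and 4 SB-treated samples (10 mM, 24 h), grouped by their titles. The authors mapped 50-base single reads to hg38 with TopHat2 2.1.0, counted them per gene with featureCounts 1.5.0, filtered out genes that did not exceed 1 CPM in 2 or more samples, scaled library sizes with edgeR 3.16.5 (TMM) and deposited RPKM values per gene and library. The library kit keeps strand, and whether counting used strand is not given in the sources used here. The deposited columns of fold changes and p-values were not used, and 0 columns of per-sample values were left unused.

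RPKM values are reads divided by gene length and library size. Ratios of low values gave relative depth, and the scale came from 169 genes with a counted length equal to their RefSeq span, so that whole reads were obtained for 100% of genes (within 0.02 reads, or 1e-06 of the number where that is larger). A gene whose reads share a divisor can be understated. The main test was limma 3.58.1 (R 4.3.3) applied to log2(RPKM + 1), and p-values of the 14526 genes were adjusted by the Benjamini-Hochberg method. Exact permutation tests used scipy 1.17.1. Both the recovery and the test were tried on simulated data. For the test these had few changed genes, the same added spread for every gene and no library that stood apart. They therefore do not show how the test behaves with a library like control replicate 1 or with most genes changed. The study calls the samples biological replicates, and p-values measure the spread between them.

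The genes and lists were chosen with earlier results of these data known. Named are the 6 genes, list genes led by the largest changes past the threshold, and for each of the 6 past it the 2 most similar profiles. Alternatives were a pseudocount of 0.1, 3 other scalings, a filter at 1 RPKM in 4 libraries, a replicate block, voom on recovered reads, and fits that omit 1 library each. Voom with the block was added after seeing the data. Intervals are limma's at 95%. GC content was known for 91.5% of genes. GENCODE release 44 and RefSeq are on the authors' build. Protein sequences were not used here. A marker gene of the cell type check is not reported here.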

Additional observations from a re-analysis of the deposited data

Results flagged for a closer look

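Among 70 groups of 4 libraries examined for the members and the zinc and copper genes, 5 held a library whose gap to its nearest neighbour exceeded Dixon's 95% critical value as a share of the group's range, where chance gives about 3.5. For MT2A in the SB-treated libraries, replicate 1 was lowest at 7.89 RPKM, with a gap of 0.898 of the range. The other 4 were control replicate 1. It was highest for SLC30A5 (22.6 RPKM, gap 0.913), SLC30A9 (58.6 RPKM, gap 0.894) and SLC39A8 (10.7 RPKM, gap 0.933), and lowest for SLC31A2 (3.05 RPKM, gap 0.912). For MT2A in the controls the gap of replicate 1 was 0.818, just under the limit. The cause was not tested.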

How the results depend on the processing

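MTF1 kept its direction and an adjusted p below 0.05 under all alternatives, and MT2A, MT1X and MT1F kept lower means after SB. Leaving out each library in turn gave log2 fold changes from -0.46 to -0.19 for MT2A, from -0.37 to -0.19 for MT1X, from -0.36 to -0.20 for MT1F, from 0.31 to 0.34 for MTF1 and from -0.0249 to 0.0199 for SLC30A1. The threshold was passed in 1 of 8 such fits by MT2A, in 2 by MT1X and in 3 by MT1F. MT1F also passed with median-of-ratios scaling (-0.28, adjusted p = 0.0495) and with the filter on low values (-0.28, adjusted p = 0.0499), where fewer genes were tested.

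With the replicate block the log2 fold change was -0.27 for MT2A (adjusted p = 0.0311) and -0.28 for MT1F (adjusted p = 0.00664), both now past the threshold, while MT1X was at -0.28 (adjusted p = 0.0682). With voom and the replicate block, added after seeing the data, MT2A was at -0.33 (adjusted p = 0.0225) and MT1F at -0.43 (adjusted p = 0.0327). Deviations of same-numbered libraries correlated at 0.38, 0.327, 0.173 and -0.16 over genes for replicates 1 to 4. Their mean was 0.18, against -0.0541 for other pairs, and 4 of 8 libraries correlated best with their own number. Replicate 4 did not follow and the labels name nothing shared by a number, so the numbers were not taken as pairs. Whether same-numbered cultures belong together is not known, and the calls of MT2A and MT1F depend on it. The block gave 4885 genes higher and 4894 lower, against 4787 and 4740, and changed no other call of a member.

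SLC30A1 turned to 0.0922 without TMM factors and to 0.17 with equal sums of RPKM, which follows from moving the median gene to 0.113 and 0.195. Equal sums of RPKM gave 7439 genes higher and 2432 lower. Of 30 zinc and copper genes, 4 were higher and 11 lower, against 33.0% and 32.6% of all genes. The number higher became 10 without TMM factors, against 43.0% of all genes. With equal sums of RPKM 13 were higher and 6 lower, against 51.2% and 16.7%. Leaving out each library gave 4311 to 5459 genes higher and 4285 to 5511 lower in the table. Among the zinc and copper genes it gave 4 to 7 higher and 9 to 14 lower. Without control replicate 1 it was 7 and 14, against 37.6% and 37.9% of all genes. Depth limits MT1F most, at 42.8 reads on average in the controls.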

Other observations

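Metallothionein genes, MT2A among them, are also glucocorticoid-responsive, and a list of 10 other such genes was described in the same test. All 10 have a row, and 6 were lower and 1 was higher, against 32.6% and 33.0% over the table. This list too was chosen with earlier results of these data known, so its count is a description only. TSC22D3 (GILZ), an anti-inflammatory leucine zipper protein, fell from 36.3 ± 0.395 to 17.1 ± 0.523 RPKM (SD, n = 4), which is -1.04 as log2 fold change (limma adjusted p = 6.89e-08). KLF9 fell by 0.54 on the log2(RPKM + 1) scale, FKBP5, a co-chaperone of the glucocorticoid receptor, by 0.30, and ZBTB16 by 0.27. ZBTB16 went from 0.745 to 0.442 RPKM, and at so low a level this scale understates the change. DUSP1, a MAP kinase phosphatase, went the other way, from 28.4 ± 0.497 to 40.8 ± 1.07 RPKM, which is 0.51 as log2 fold change. The groups did not overlap for these 5 genes. PER1 was at 11.5 ± 1.87 RPKM in control and 11.8 ± 0.210 RPKM after SB and did not pass. Without control replicate 1, 7 were lower and 1 was higher, against 37.9% and 37.6% of all genes. Without TMM factors 4 were lower and 1 higher, against 23.1% and 43.0%. With equal sums of RPKM it was again 4 and 1, against 16.7% and 51.2%. Under that last scaling ERRFI1 turned from -0.16 to 0.02.

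Genes that cadmium and proteotoxic stress induce together with metallothioneins had a row for 6 of 7, and 2 were higher and 1 lower, against 33.0% and 32.6% over the table. DNAJB1, a co-chaperone of HSP70, rose from 13.2 ± 0.250 to 17.9 ± 0.314 RPKM (SD, n = 4), which is 0.42 as log2 fold change (limma adjusted p = 4.22e-06), and HSPA1B rose by 0.17 (adjusted p = 0.00814) with a counted length 5.01 times its GENCODE exons. HSPA1B is uncertain, since it is nearly identical to HSPA1A, which has no row. HSPH1 fell by 0.11 (adjusted p = 0.0473) and turned to 0.07 with equal sums of RPKM. HMOX1, the heme oxygenase that metals and oxidants induce, was at 10.3 ± 1.21 RPKM in control and 9.07 ± 0.388 RPKM after SB and did not pass (adjusted p = 0.0751). HSPB1 and BAG3 did not pass either, at -0.18 and 0.03. Without control replicate 1, 2 of the 6 were higher and 3 lower, against 37.6% and 37.9% of all genes. Both without TMM factors and with equal sums of RPKM 3 were higher and 0 lower. All genes were at 43.0% and 23.1% in the former and at 51.2% and 16.7% in the latter.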
